A study of Mus musculus with 9 samples.

Results

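The genes described here are 34 genes of DNA replication and S phase, taken from the deposited count table by their symbols. They make up 34 of its 24756 rows, and all 34 were among the 10215 genes with enough reads to test. The cells are a mouse acute myeloid leukaemia line made from foetal liver cells with a pair of retroviral vectors. One vector (MSCV-Luc2-IRES-MLL-AF9) makes the fusion protein MLL-AF9 and luciferase constitutively. The other (TRE-tight-DsRED-IRES-FLT3-ITD) makes the mutant receptor tyrosine kinase FLT3-ITD and a red fluorescent protein from a promoter that needs doxycycline. The 9 libraries form 3 groups of 3. They come from cells held at 1 µg/mL doxycycline throughout (ON), cells grown without it for 24 h after washing (OFF24) and cells grown without it for 48 h (OFF48). All 3 groups thus carry MLL-AF9 and both vectors, and they differ in doxycycline as well as in the transgene it drives. The labels say neither whether the line is 1 clone nor whether replicate libraries stem from separate cultures. The p-values therefore reflect only how much these libraries vary, and that variation may be technical.

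Before DNA can be copied, the origin recognition complex, CDC6 and CDT1 load the MCM2 to MCM7 ring onto origins in G1, a step called licensing. CDC45 and the GINS complex turn the ring into an active helicase at the start of S phase, and polymerases, the PCNA clamp and its loader RFC then copy the DNA. Many of these genes are transcribed in a wave at the G1/S boundary by E2F factors, once cyclin and CDK activity has inactivated RB and its relatives. Their RNA is therefore widely read as a sign of dividing cells, including in myeloid progenitors, which leave the cycle as they mature.

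Libraries were made with a 3' kit, which reads the 3' ends of polyadenylated RNA. Library totals ran from 1329296 counts (OFF48 replicate 2) to 4038456 (ON replicate 2), and each of the 34 genes had between 10 and 2759 counts in each library. Levels below are CPM, read counts relative to the library's TMM-scaled total, with the SD over n = 3 libraries, and differences are log2 fold changes from edgeR with their standard error (SE). A gene is called higher or lower where its edgeR quasi-likelihood p, adjusted by Benjamini-Hochberg over all tested genes, is under 0.05. In bulk RNA, fewer cells in S phase and less RNA of a gene per cell cannot be told apart. The mouse Flt3 gene had 2 to 10 counts in each library, and its 3' counts do not check the vector, whose transcript ends in vector sequence. Of 10 myeloid markers all were tested, with Prtn3 the highest on average. Their summed level was 2340 to 2540 CPM in ON, 4210 to 4630 in OFF24 and 6420 to 7300 in OFF48. The sum was higher at each later time, which does not show that each marker rose. Its part in the changes of the replication genes was not tested. Erythroid markers summed to at most 1.57 CPM in any library, with 3 of 8 at 0 in all of them, lymphoid markers to at most 6.12 CPM (1 of 7 at 0), and hepatocyte and stromal markers to at most 7.0 CPM (1 of 6 at 0). The genes listed as megakaryocyte and mast cell markers summed to between 9.0 and 30.1 CPM, with Mcpt8 the highest on average and 2 of 7 at 0. This sum does not tell which cell type, megakaryocyte, mast cell or another, holds these reads.

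The 34 genes lie on 14 chromosomes (GENCODE M21, build GRCm38, also called mm10). Promoter windows of 300 bases, from 250 before to 50 after an annotated start, were found for 26 of them in RefSeq (GRCm38.p6). An E2F octamer, here 1 of the 4 sequences TTTCCCGC, TTTCGCGC, TTTGCCGC and TTTGGCGC on either strand, stood in a window of 13 of these 26 genes (50.0%). It stood in 402 of 8018 tested genes with a window (5.01%) and in 3 of 26 genes of a mitosis list (11.5%). The windows of the 5 genes that both hold an octamer and were called higher at 48 h than at 24 h are printed to show where their octamers lie. The genes were chosen for holding one, and no single octamer is common to all 5. They are Lig1 (chr7:13278576-13278875, plus strand), Mcm3 (chr1:20820263-20820562, minus strand), Mcm5 (chr8:75109259-75109558, plus strand), Mcm7 (chr5:138171834-138172133, minus strand) and Rfc3 (chr5:151651159-151651458, minus strand). Each is written 5' to 3' on the gene's strand, with the octamers in capitals.
Lig1: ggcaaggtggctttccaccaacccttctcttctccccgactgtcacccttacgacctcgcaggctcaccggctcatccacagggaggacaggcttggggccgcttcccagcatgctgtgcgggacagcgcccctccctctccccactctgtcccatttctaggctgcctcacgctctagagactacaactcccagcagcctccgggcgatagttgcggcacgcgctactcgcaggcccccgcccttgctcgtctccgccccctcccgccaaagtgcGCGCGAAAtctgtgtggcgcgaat
Mcm3: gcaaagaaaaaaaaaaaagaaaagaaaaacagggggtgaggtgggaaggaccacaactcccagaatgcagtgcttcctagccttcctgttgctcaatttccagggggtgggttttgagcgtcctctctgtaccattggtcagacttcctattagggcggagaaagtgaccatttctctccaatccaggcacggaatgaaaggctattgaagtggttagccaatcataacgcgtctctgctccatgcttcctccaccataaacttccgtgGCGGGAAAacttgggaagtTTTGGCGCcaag
Mcm5: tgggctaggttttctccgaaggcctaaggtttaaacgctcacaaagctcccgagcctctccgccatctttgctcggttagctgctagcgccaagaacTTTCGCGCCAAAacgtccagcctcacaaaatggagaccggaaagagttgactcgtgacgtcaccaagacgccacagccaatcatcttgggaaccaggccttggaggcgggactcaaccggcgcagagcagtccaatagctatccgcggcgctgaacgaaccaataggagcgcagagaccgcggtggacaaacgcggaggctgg
Mcm7: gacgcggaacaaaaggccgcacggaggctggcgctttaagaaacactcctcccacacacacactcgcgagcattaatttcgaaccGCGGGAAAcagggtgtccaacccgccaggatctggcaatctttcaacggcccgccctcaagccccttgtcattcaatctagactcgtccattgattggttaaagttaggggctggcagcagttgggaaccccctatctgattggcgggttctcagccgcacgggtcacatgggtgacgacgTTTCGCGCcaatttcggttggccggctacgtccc
Rfc3: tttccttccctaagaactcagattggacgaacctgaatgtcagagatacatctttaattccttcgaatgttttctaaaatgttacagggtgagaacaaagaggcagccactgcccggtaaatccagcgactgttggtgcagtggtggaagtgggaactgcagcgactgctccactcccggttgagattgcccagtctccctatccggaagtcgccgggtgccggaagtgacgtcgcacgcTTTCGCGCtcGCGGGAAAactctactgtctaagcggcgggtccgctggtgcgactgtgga
Positions are counted from the start site of each printed window. The octamer of Lig1 begins at base 27 and those of Mcm3 at bases 20 and 39. Those of Mcm7 begin at -165 and 17 and those of Rfc3 at -10 and 1. Lig1 and Mcm7 also had windows at other annotated starts, and those held no octamer. In Mcm5 a pair of octamers, on opposite strands, begins at -153 and -149 and overlaps.

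The octamer stood both in genes that were higher at the later time and in genes that were not. Of 9 genes with a window that were called higher at 48 h than at 24 h, 5 held it, and of the 17 others 8 did. The median log2 difference between these times was 0.30 over the 13 genes with an octamer and 0.28 over the 13 without. E2f1 counts here as without one, but its only window (chr2:154569377-154569676) lies wholly inside the annotated gene (154559407-154569892). The sequence before the outermost annotated start of E2f1 was thus not searched, and its count is uncertain. CCAAT, the core of the NF-Y site, stood in 17 of 26 replication genes (65.4%), 23 of 26 mitosis genes (88.5%) and 3521 of 8018 tested genes (43.9%). TTTGAA, the core of the CHR element of G2 and M phase promoters, stood in 5 of 26 replication genes (19.2%), 21 of 26 mitosis genes (80.8%) and 1164 of 8018 tested genes (14.5%). Both strands were searched, matches of different motifs can overlap (in Mcm7 the last base of an octamer is the first of a CCAAT), and a match is a description of the sequence only.

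**Figure D1:**
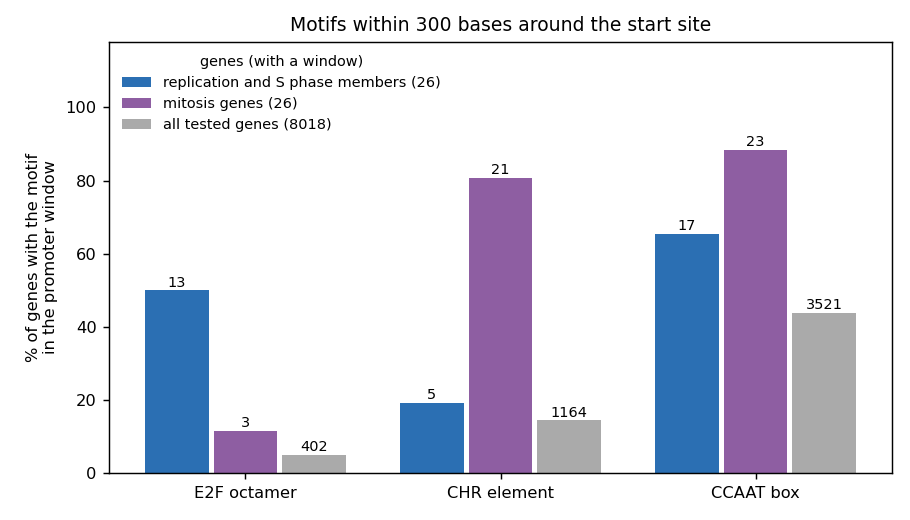
Share of genes (vertical axis, %) whose promoter window holds each motif, for 26 replication and S phase genes, 26 mitosis genes and 8018 tested genes; numbers above the bars are genes with the motif. The E2F octamer stands in 50.0% of the replication genes and 5.01% of tested genes, and the CHR core in 80.8% of the mitosis genes.

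Setting OFF24 against ON asks how replication genes stood 24 h after doxycycline was withdrawn. Of the 34 genes 7 were lower and 0 higher: Mcm2, Mcm7, Pcna, Tipin, Chaf1b, Uhrf1 and Ccne1. The falls ran from 22.3% for Pcna to 46.7% for Ccne1. Among all tested genes 17.4% were lower and 17.8% higher (35.3% in either direction), so the share of lower genes (20.6%) was near the background, while no replication gene was called higher. At an unadjusted p under 0.05 the count was 10 lower and 0 higher, DESeq2 gave 6 and 0, and limma-voom 7 and 0. Over the 10215 tested genes these counts were 2225 lower and 2346 higher unadjusted, 1474 and 1380 with DESeq2, and 1781 and 1865 with limma-voom. The median log2 fold change was -0.20 over the 34 genes and 0.03 over all tested genes. In 14 genes all OFF24 libraries lay below all ON libraries (background 23.8%), and in 1, Prim1, all lay above (background 25.1%).

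Setting OFF48 against ON asks where these genes stood a day later, and it shares the ON libraries with the first comparison. Of the 34 genes 8 were higher (23.5%, background 23.4%) and 2 lower (5.88%, background 23.9%), 10 in all against 47.4% of tested genes in either direction. The higher genes were Mcm3, Mcm4, Mcm5, Prim1, Rfc3, Lig1, Slbp and E2f1, with rises from 21.0% for Mcm3 to 52.9% for Mcm5, and the lower ones were Tipin and Ccne1. At an unadjusted p under 0.05 the count was 9 higher and 2 lower, DESeq2 gave 8 and 1, and limma-voom 8 and 2. Over the 10215 tested genes these counts were 2736 higher and 2749 lower unadjusted, 2022 and 2142 with DESeq2, and 2389 and 2438 with limma-voom. Without ON replicate 1 the count was 5 higher and 0 lower. The median log2 fold change was 0.06, against 0.01 over all tested genes, and it ran from 0.02 to 0.17 when 1 library was left out.

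The direct comparison of OFF48 with OFF24 is the test of a difference between 24 h and 48 h. Here 11 of the 34 genes were higher (32.4%, background 9.99%) and 0 lower (background 11.2%, and 21.1% in either direction): Mcm2, Mcm3, Mcm4, Mcm5, Mcm7, Cdc45, Pcna, Rfc3, Lig1, Tipin and E2f1. At an unadjusted p under 0.05 the edgeR counts were 15 and 0, and DESeq2 and limma-voom each called 11 higher and 0 lower. Over the 10215 tested genes these counts were 1675 higher and 1766 lower unadjusted, 807 and 908 with DESeq2, and 984 and 1102 with limma-voom. The median log2 fold change was 0.29, against 0.00 over all tested genes. In 16 genes all OFF48 libraries lay above all OFF24 libraries (background 18.2%). Mcm2, Mcm7, Pcna and Tipin were called both lower at 24 h and higher at 48 h than at 24 h, which is 11.8% of the 34 genes and 1.15% of all tested genes. Both calls use the same OFF24 libraries, so the fall and the rise are not independent results. The lowest of the 3 group means was that of OFF24 in 27 genes, that of ON in 4 and that of OFF48 in 3. How often each group had the lowest mean among all tested genes was not counted, so these counts have no background. Summed over the 34 genes, the level was 3781 ± 194 CPM in ON, 3226 ± 69.1 CPM in OFF24 and 4282 ± 247 CPM in OFF48 (SD, n = 3), without overlap between OFF24 and the other groups. Replicate 3 of ON and of OFF48 both summed to 4002 CPM. Lig1, the gene with the most reads, had 605 ± 54.6, 530 ± 35.3 and 828 ± 222 CPM of these sums, so it weighs heavily in them. No gene of the 34 was called with a change of at least 2-fold in any of these comparisons, where 8.72%, 16.7% and 5.66% of all tested genes were.

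**Figure D2:**
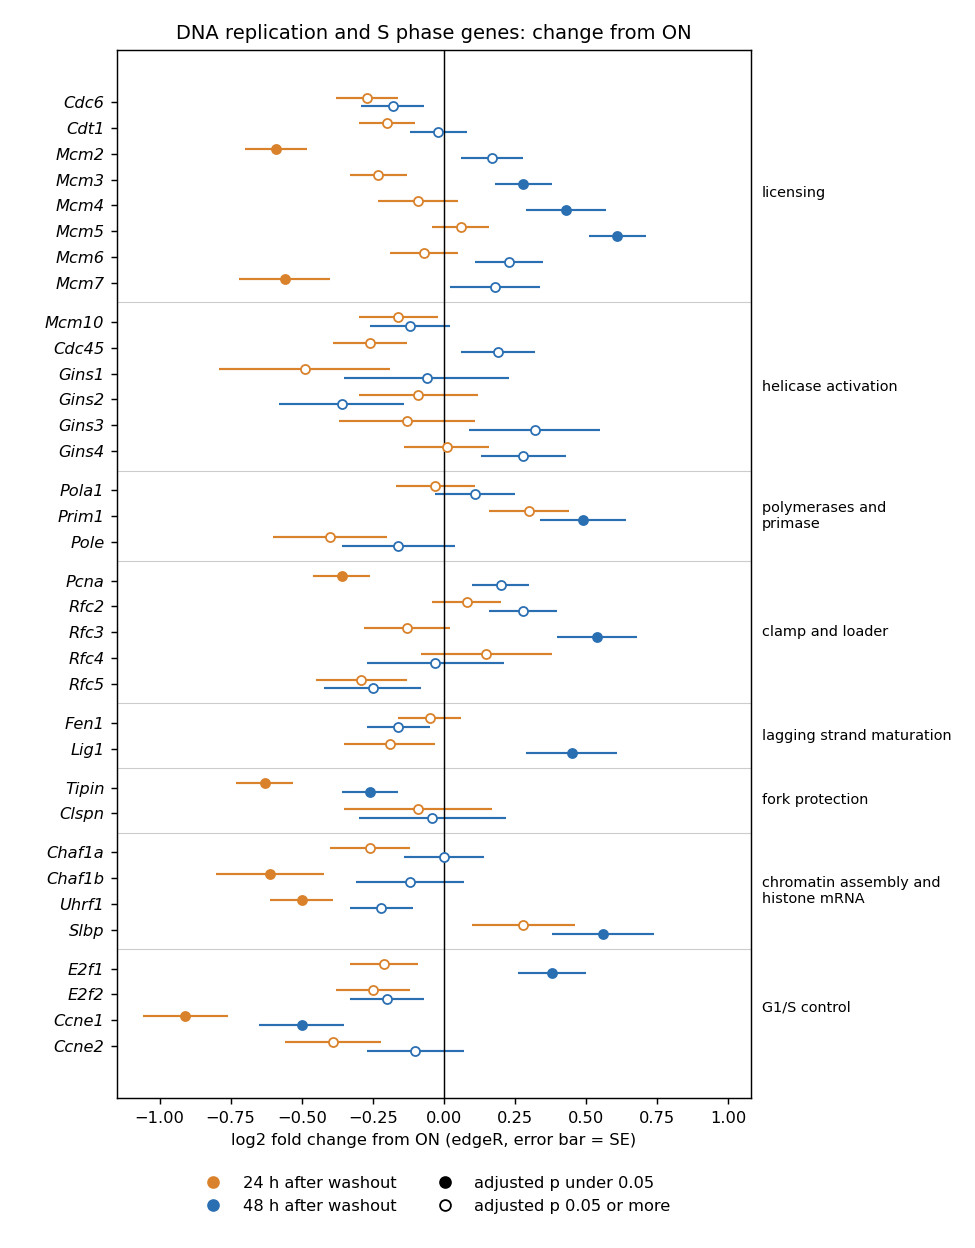
Log2 fold change from ON (horizontal axis; point and SE from edgeR) of each of the 34 genes at 24 h and 48 h after washout, by role; filled points have an adjusted p under 0.05. All 7 filled points at 24 h lie left of 0, and 8 of 10 at 48 h lie right of it.

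Among licensing genes, Mcm2, a subunit of the helicase ring, had 137, 142 and 129 CPM in the ON libraries, 84.9, 97.3 and 88.2 in OFF24 and 137, 163 and 161 in OFF48. Its OFF24 libraries lay below all others, and those of ON and OFF48 overlapped. The log2 fold change was -0.59 ± 0.11 (SE) at 24 h (edgeR adjusted p = 0.000315) and 0.17 ± 0.11 at 48 h (adjusted p = 0.203), with 0.76 ± 0.11 between the times (adjusted p = 5.36e-05). Mcm7, another ring subunit, had 175, 215 and 180 CPM in ON, 113, 151 and 122 in OFF24 and 188, 288 and 182 in OFF48. Its OFF24 libraries were again the lowest, and replicate 2 was the highest of each group. It fell by 0.56 ± 0.16 on the log2 scale at 24 h (adjusted p = 0.0136) and stood 0.74 ± 0.16 higher at 48 h than at 24 h (adjusted p = 0.00421). The fall at 24 h was not called without OFF24 replicate 1 or OFF24 replicate 3, or on the deposited normalised table (highest adjusted p 0.0895).

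Mcm5, also of the ring, was called at 48 h and not at 24 h, with 128, 119 and 121 CPM in ON, 130, 121 and 135 in OFF24 and 178, 194 and 193 in OFF48. ON and OFF24 overlapped, and the OFF48 libraries lay above both. Its log2 fold change was 0.06 ± 0.10 at 24 h (adjusted p = 0.665), with a 95% interval from -0.15 to 0.27, and 0.61 ± 0.10 at 48 h (adjusted p = 4.71e-05). Mcm3 had 247, 245 and 279 CPM in ON, 217, 215 and 225 in OFF24 and 337, 304 and 292 in OFF48, so that the 3 groups did not overlap. The change from ON was -0.23 ± 0.10 at 24 h (adjusted p = 0.0781) and 0.28 ± 0.10 at 48 h (adjusted p = 0.0281), and the step between the times was 0.51 ± 0.10 (adjusted p = 0.00117). The rise over ON was lost in 7 of 21 alternatives, among them leaving out ON replicate 1, ON replicate 2 or OFF48 replicate 1 (highest adjusted p 0.128).

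Mcm4 had 216, 155 and 221 CPM in ON, 208, 172 and 176 in OFF24 and 288, 211 and 293 in OFF48. Replicate 2 was the lowest of each group, and ON and OFF48 overlapped through it. The gene rose at 48 h by 0.43 ± 0.14 on the log2 scale over ON (edgeR adjusted p = 0.0183) and stood 0.52 ± 0.14 above OFF24 (adjusted p = 0.0139). The first call was lost without ON replicate 2, OFF48 replicate 1 or OFF48 replicate 3 (adjusted p up to 0.0873) and on the deposited normalised table (0.0925). The second was lost without OFF24 replicate 2, OFF24 replicate 3, OFF48 replicate 1 or OFF48 replicate 3 (up to 0.0628) and on that table (0.134). Mcm6, the remaining subunit, had 199 to 258 CPM in ON, 203 to 243 in OFF24 and 241 to 300 in OFF48, and was not called (0.30 ± 0.12 between the times, adjusted p = 0.0791). Between the times it was called higher in 5 of 21 alternatives (adjusted p from 0.0214 to 0.232). Summed over MCM2 to MCM7, the level was 1136 ± 56.2 CPM in ON, 973 ± 19.7 CPM in OFF24 and 1407 ± 11.5 CPM in OFF48 (SD, n = 3). Of these 6 genes 5 were called higher at 48 h than at 24 h (83.3%, background 9.99%). Cdc6 and Cdt1, which help to load the ring, were not called. Cdc6 went from 98.5 ± 4.8 CPM in ON to 81.6 ± 0.875 in OFF24 and 86.0 ± 7.08 in OFF48. Its log2 fold change at 24 h was -0.27 ± 0.11 (edgeR adjusted p = 0.0549), close to the threshold, and it was called lower in 9 of 21 alternatives (adjusted p from 0.0373 to 0.142). Cdt1 went from 156 ± 6.34 to 135 ± 7.03 and 153 ± 16.2 CPM. The OFF24 libraries of both lay below all of ON.

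**Figure D3:**
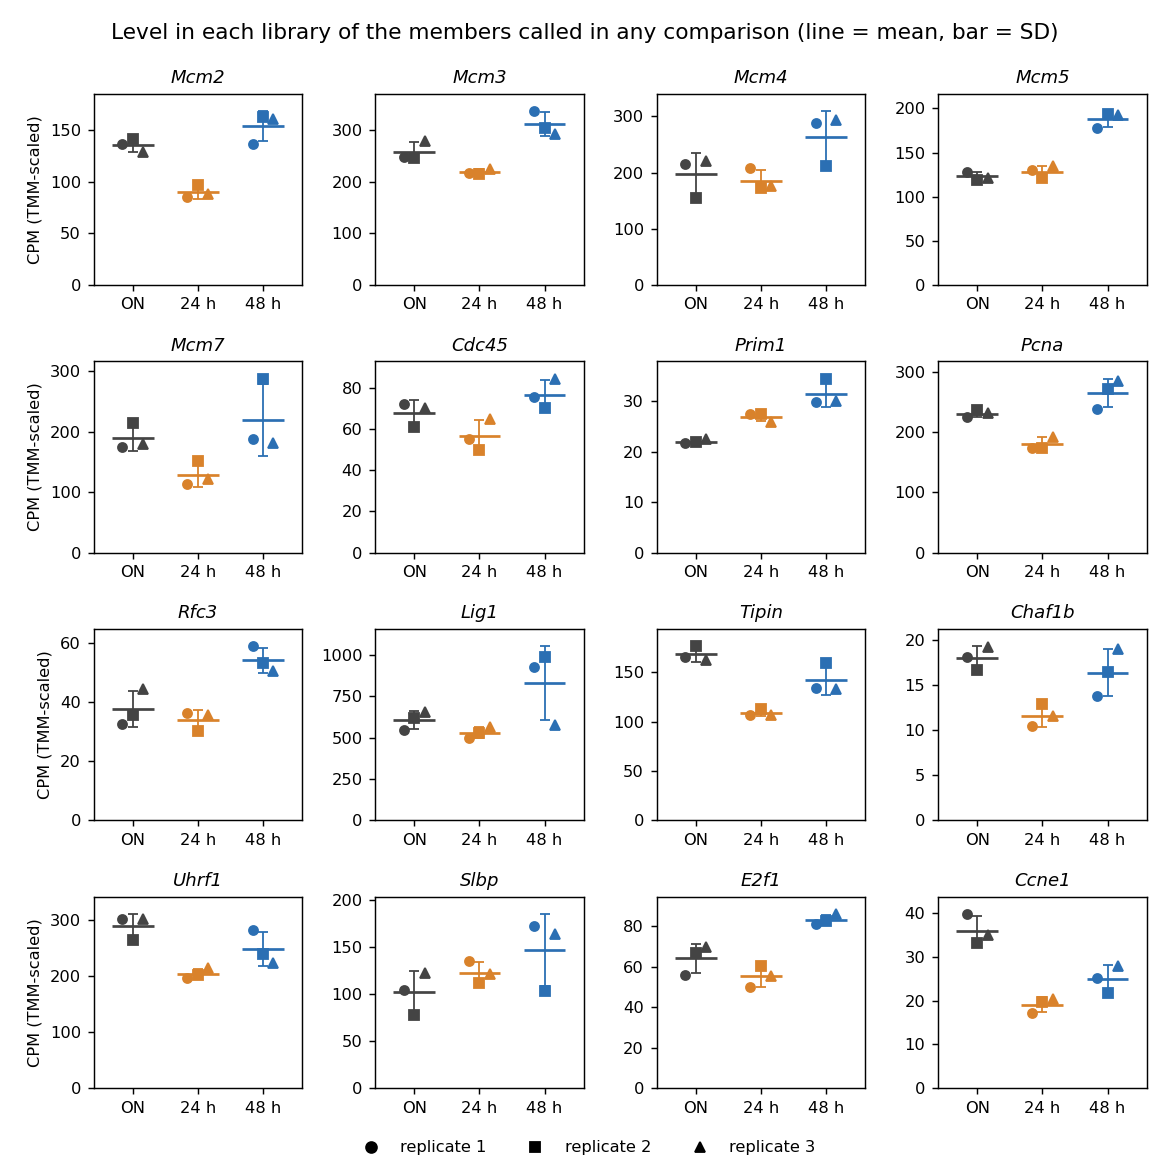
Level in CPM (vertical axes, from 0) of the 16 genes called in any comparison, in each of the 9 libraries; lines are group means, bars the SD, and marker shapes the replicate number. Examples are Mcm2, Mcm7, Pcna and Tipin, where OFF24 is lowest, and Mcm5, Rfc3 and E2f1, where OFF48 stands above the other groups. Other genes, such as Mcm3, show these patterns too. For Lig1, 1 OFF48 library (573 CPM) lies with the ON libraries.

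Of the helicase activators, only Cdc45, the subunit that joins the ring at origin firing, was called. Its levels were 72.4, 60.9 and 70.5 CPM in ON, 55.2, 49.9 and 64.9 in OFF24 and 75.5, 70.5 and 84.6 in OFF48. The OFF48 libraries lay above all OFF24 libraries and overlapped ON. It rose between the times by 0.45 ± 0.13 on the log2 scale (adjusted p = 0.0178), a call lost without OFF24 replicate 1, OFF24 replicate 2 or OFF48 replicate 3 and on the deposited normalised table (highest adjusted p 0.0898). The 4 GINS genes, whose products form a complex with CDC45 and the ring, were not called in any comparison. Gins1 (5.66 to 13.0 CPM over the 9 libraries) and Gins3 (7.15 to 14.1 CPM) had the fewest reads, and Gins1 the widest SE (up to 0.32), so that smaller changes were not detectable there. Gins4 stood at 24.5 ± 1.46, 24.4 ± 3.56 and 29.8 ± 1.45 CPM. Gins2 ran the other way, from 72.6 ± 20.1 CPM in ON to 67.7 ± 9.12 and 54.7 ± 16.6 (log2 -0.36 ± 0.22 at 48 h, adjusted p = 0.198). With replicate number as a block the fit called Gins2 lower (-0.40, adjusted p = 0.0224) and Mcm6 higher (0.22, adjusted p = 0.0441) at 48 h than in ON. The block was not the only alternative to do so. Gins2 was called in 5 of 21 (adjusted p from 0.018 to 0.546) and Mcm6 in 2 of 21 (from 0.0441 to 0.399). Mcm10, which helps the helicase start, stood at 51.6 ± 5.37, 45.8 ± 6.13 and 46.5 ± 7.51 CPM.

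Among polymerase genes Prim1, the catalytic primase subunit that lays down RNA primers, had 21.7, 21.9 and 22.5 CPM in ON, 27.6, 27.6 and 25.9 in OFF24 and 29.9, 34.5 and 30.0 in OFF48. It was the 1 gene of the 34 whose libraries were above ON at both times, and its 3 groups did not overlap. The log2 fold change was 0.30 ± 0.14 at 24 h (adjusted p = 0.12) and 0.49 ± 0.15 at 48 h (adjusted p = 0.00898). Without replicate 2 of all groups the second value reached the threshold and was not called (adjusted p = 0.05). Pola1, the polymerase that works with primase, stood at 41.5 ± 4.74, 40.6 ± 1.83 and 46.1 ± 7.66 CPM. Pole, the leading strand polymerase, stood at 14.3 ± 1.03, 11.0 ± 1.54 and 12.5 ± 2.05 CPM, and neither was called.

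Pcna, the sliding clamp, had 225, 237 and 232 CPM in ON, 173, 173 and 192 in OFF24 and 239, 271 and 285 in OFF48. The OFF24 libraries lay below ON and the OFF48 libraries above both groups. It fell by 0.36 ± 0.10 on the log2 scale at 24 h (adjusted p = 0.00842) and stood 0.56 ± 0.10 higher at 48 h than at 24 h (adjusted p = 0.00058), while the difference between OFF48 and ON was 0.20 ± 0.10 (adjusted p = 0.118). On the deposited normalised table the fall at 24 h was not called (adjusted p = 0.0597, from 0.00192 over the alternatives). Rfc3, a subunit of the loader that opens the clamp, had 32.6, 35.6 and 44.4 CPM in ON, 36.4, 30.1 and 35.4 in OFF24 and 58.7, 53.2 and 50.4 in OFF48. Its OFF48 libraries lay above all others, and ON and OFF24 overlapped. The rise at 48 h was 0.54 ± 0.14 over ON (adjusted p = 0.0038) and 0.68 ± 0.15 over OFF24 (adjusted p = 0.00241). The other loader subunits were not called. Rfc2 went from 72.5 ± 9.11 CPM to 76.2 ± 6.1 and 87.9 ± 7.2, Rfc4 from 13.2 ± 1.38 to 14.9 ± 4.4 and 12.9 ± 2.6, and Rfc5 from 67.0 ± 10.1 to 54.6 ± 6.78 and 58.5 ± 16.4. Members of 1 complex thus had fitted changes at 48 h from -0.25 (Rfc5) to 0.54 (Rfc3) on the log2 scale.

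Lig1, the ligase that joins Okazaki fragments, had 545, 619 and 652 CPM in ON, 495, 528 and 566 in OFF24 and 926, 985 and 573 in OFF48. Replicate 3 of OFF48 lay among the ON libraries, far below the other two. The gene rose at 48 h by 0.45 ± 0.16 over ON (adjusted p = 0.0293) and by 0.64 ± 0.16 over OFF24 (adjusted p = 0.00941). The first call was lost in 7 of 21 alternatives, among them the replicate block (0.43, adjusted p = 0.0672) and leaving out ON replicate 1, ON replicate 2, OFF48 replicate 1 or OFF48 replicate 2 (adjusted p up to 0.124). It was also lost on the deposited normalised table (0.0831) and without replicate 2 of all groups (0.176). The second call was lost in 1 alternative, the one without replicate 2 of all groups (adjusted p = 0.0753). Fen1, the nuclease that trims the fragments before ligation, stood at 114 ± 11.1, 110 ± 8.23 and 102 ± 5.24 CPM and was not called.

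Tipin, which with TIMELESS stabilises stalled forks, had 165, 176 and 162 CPM in ON, 107, 113 and 107 in OFF24 and 134, 159 and 133 in OFF48. The 3 groups did not overlap, with OFF24 lowest and ON highest. It fell by 0.63 ± 0.10 on the log2 scale at 24 h (adjusted p = 0.000118) and rose from there by 0.37 ± 0.11 (adjusted p = 0.0171). At 48 h it was still 0.26 ± 0.10 below ON on the log2 scale, at the threshold (adjusted p = 0.0481). That last call was lost in 13 of 21 alternatives (adjusted p from 0.0146 to 0.182), including 8 of the 9 that leave out 1 library, all but OFF48 replicate 2. The rise from 24 h was lost without OFF24 replicate 3 or OFF48 replicate 2 and on the deposited normalised table (highest adjusted p 0.0599). Clspn, the adaptor of the checkpoint kinase CHEK1 at forks, ranged from 73.2 to 134 CPM within ON alone and was not called.

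Among genes of chromatin behind the fork, Uhrf1, which brings the maintenance DNA methyltransferase to new DNA, had 301, 264 and 301 CPM in ON, 197, 202 and 214 in OFF24 and 282, 240 and 223 in OFF48. The OFF24 libraries lay below all others. It fell by 0.50 ± 0.11 on the log2 scale at 24 h (adjusted p = 0.00139), and at 48 h its difference from ON was -0.22 ± 0.11 (adjusted p = 0.106). The difference between the times, 0.28 ± 0.11, was not called either (edgeR adjusted p = 0.074). Chaf1b, a subunit of the histone chaperone CAF-1, had 18.1, 16.7 and 19.3 CPM in ON, 10.5, 12.9 and 11.6 in OFF24 and 13.8, 16.5 and 19.0 in OFF48. Its OFF24 libraries were also the lowest. It fell by 0.61 ± 0.19 at 24 h (adjusted p = 0.0169), a call lost without OFF24 replicate 1 and with DESeq2 (highest adjusted p 0.0581). Its difference between the times, 0.49 ± 0.20, was not called (edgeR adjusted p = 0.0967). Chaf1a, the other subunit listed, stood at 74.7 ± 11.5, 62.6 ± 2.06 and 76.0 ± 13.3 CPM, without a call.

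Slbp, which binds the stem-loop of replication-dependent histone mRNAs, had 105, 77.6 and 123 CPM in ON, 135, 112 and 122 in OFF24 and 173, 103 and 164 in OFF48. Replicate 2 was the lowest of each group, and all groups overlapped. It rose at 48 h by 0.56 ± 0.18 on the log2 scale over ON (adjusted p = 0.0208). The call was lost without ON replicate 2, OFF48 replicate 1 or OFF48 replicate 3 and on the deposited normalised table (highest adjusted p 0.105).

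Of the G1/S regulators, Ccne1, cyclin E1, which activates CDK2 at the start of S phase, had 39.8, 33.2 and 35.1 CPM in ON, 17.1, 19.8 and 20.3 in OFF24 and 25.2, 21.7 and 28.0 in OFF48. The 3 groups did not overlap, with ON highest. Its fall of 0.91 ± 0.15 on the log2 scale at 24 h (adjusted p = 0.000149) was the largest change of any of the 34 genes in the 3 comparisons as fitted, and at 48 h it remained 0.50 ± 0.15 lower than ON (adjusted p = 0.0111). Without ON replicate 1 the second call was lost (adjusted p = 0.0592, from 0.00669 over the alternatives). Between the times the difference of Ccne1, 0.41 ± 0.17, was not called (edgeR adjusted p = 0.0893). Ccne2, cyclin E2, stood at 28.8 ± 4.09, 21.8 ± 3.14 and 26.6 ± 3.88 CPM and was not called. E2f1, an activating E2F factor, had 56.1, 66.6 and 69.8 CPM in ON, 50.2, 60.3 and 55.4 in OFF24 and 81.2, 82.5 and 86.0 in OFF48. Its OFF48 libraries lay above all others. The rise at 48 h was 0.38 ± 0.12 over ON (adjusted p = 0.0127), lost without ON replicate 1 (adjusted p = 0.0845, the highest over the alternatives), and 0.59 ± 0.12 over OFF24 (adjusted p = 0.00183). E2f2, another activating E2F, stood at 50.1 ± 1.47, 42.2 ± 4.36 and 44.6 ± 6.19 CPM without a call. Cyclin E1 RNA was thus below ON at 48 h while E2f1 RNA was above it.

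Some calls carry an uncertainty of counting. The last 400 bases of Mcm5, Mcm7 and Slbp have a near-identical stretch (at least 95% over at least 100 bases) in other annotated genes, 4 for Mcm5 and 1 each for Mcm7 (Gm5487) and Slbp (Gm8396). Exons on the opposite strand overlap the 3' window of 7 genes, Ccne2, Chaf1a, Fen1, Gins2, Mcm7, Rfc4 and Rfc5, and the microRNA gene Mir7119 lies on the strand of Clspn in its window. The strand setting of the counting is not given in the sources used here, so these levels are uncertain to that extent.

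Other genes of the same processes are described by their counts, beside the shares over all tested genes given above. Of 48 further origin and fork genes, 13 were lower (27.1%, background 17.4%) and 1 higher (2.08%, background 17.8%) at 24 h. At 48 h 9 were lower (18.8%) and 6 higher (12.5%) than in ON, both under the background of 23.9% and 23.4%, and 6 higher and 0 lower at 48 h than at 24 h (12.5% and 0%, background 9.99% and 11.2%; 10 genes at an unadjusted p under 0.05, 9 of them higher; DESeq2 and limma-voom also 6 and 0). Orc2, of the origin recognition complex, had 30.1, 30.0 and 30.4 CPM in ON, 10.9, 14.4 and 13.7 in OFF24 and 14.1, 14.2 and 12.8 in OFF48. It fell by 1.19 ± 0.16 on the log2 scale at 24 h (adjusted p = 1.57e-05) and remained 1.15 ± 0.17 lower at 48 h (adjusted p = 1.65e-05), with 0.05 ± 0.19 between the times (adjusted p = 0.918). Nasp, a histone chaperone, fell by 0.75 ± 0.11 at 24 h (adjusted p = 3.85e-05) and was 0.54 ± 0.11 lower at 48 h (adjusted p = 0.00054). Pole3, an accessory subunit of the leading strand polymerase, was 0.87 ± 0.15 lower on the log2 scale at 48 h (adjusted p = 8.26e-05). Dna2, a nuclease of Okazaki fragment processing, was 0.85 ± 0.13 higher at 48 h than in ON (adjusted p = 1.88e-05).

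Of 10 genes of deoxynucleotide supply, 3 were higher and 4 lower at 24 h than in ON (background 17.8% and 17.4%). At 48 h 2 were higher and 3 lower (20.0% and 30.0%), near the background of 23.4% and 23.9%. Rrm2, the S phase subunit of ribonucleotide reductase, had 275 ± 20.8 CPM in ON (SD, n = 3), 166 ± 7.71 in OFF24 and 157 ± 9.95 in OFF48, a fall of 0.81 ± 0.10 (SE) on the log2 scale at 48 h (adjusted p = 2.31e-06). Dctd, dCMP deaminase, fell by 3.03 ± 0.42 at 48 h (adjusted p = 8.71e-06), with 3 or 4 counts in each OFF48 library. Dck, the salvage kinase of deoxycytidine, rose by 0.80 ± 0.11 (adjusted p = 1.15e-05) and Tyms, thymidylate synthase, by 0.76 ± 0.13 (adjusted p = 8.49e-05).

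Of 14 tested genes of E2F and pocket protein control, 0 were higher and 6 lower at 24 h (42.9% lower, background 17.4%; 2 and 6 at an unadjusted p under 0.05; DESeq2 0 and 4, limma-voom 0 and 6). At 48 h 6 were higher and 3 lower than in ON (42.9% and 21.4%, background 23.4% and 23.9%), and 4 were higher than at 24 h (28.6%, background 9.99%). Cdc25a, the phosphatase that activates CDK2, had 115 ± 7.41, 91.7 ± 1.58 and 160 ± 13.5 CPM (SD, n = 3), a fall at 24 h (log2 -0.33 ± 0.11, adjusted p = 0.0208) and a rise over ON at 48 h (0.47 ± 0.10, adjusted p = 0.00102). Cdk2 itself rose at 48 h (0.56 ± 0.10, adjusted p = 0.000181), as did the repressor E2f8 (0.50 ± 0.11, adjusted p = 0.00134) and the E2F partner Tfdp2 (0.94 ± 0.22, adjusted p = 0.00168). At 24 h Rbl1, the pocket protein p107, fell by 0.47 ± 0.14 (adjusted p = 0.0136) and E2f6, a repressor, by 0.58 ± 0.18 (adjusted p = 0.0174).

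All 10 tested G1 cyclins, kinases and inhibitors were called at 48 h, 4 higher and 6 lower than in ON (background 23.4% and 23.9%). Ccnd2, cyclin D2, had 31.9, 34.4 and 24.0 CPM in ON, 7.11, 9.1 and 6.26 in OFF24 and 2.68, 2.25 and 2.92 in OFF48, a fall of 3.47 ± 0.26 on the log2 scale at 48 h (adjusted p = 3.43e-09). Its partner Cdk6 rose by 0.54 ± 0.10 (adjusted p = 0.00016). The CDK inhibitor Cdkn1a (p21) fell by 2.13 ± 0.17 (adjusted p = 8.12e-09) and the inhibitor locus Cdkn2a by 1.70 ± 0.29 (adjusted p = 9.46e-05). The falls of Ccnd2, Cdkn1a and Cdkn2a were larger in size than the largest change among the 34 replication genes, that of Ccne1 at 24 h (0.91).

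No mitosis gene was called higher at 48 h than at 24 h by edgeR. Of 30, 6 were lower at 24 h (20.0%, near the background of 17.4%) and 10 at 48 h (33.3%, background 23.9%) than in ON, with 1 higher at each time (3.33%, background 17.8% and 23.4%). At 48 h 5 were lower and 0 higher than at 24 h (16.7% lower, background 11.2%; 7 and 0 at an unadjusted p under 0.05; DESeq2 and limma-voom 4 and 0). Their median log2 difference between the times was -0.12, against 0.29 for the 34 replication genes and 0.00 for all tested genes, and the difference between the lists was not tested. Ccnb1, cyclin B1, had 148 ± 9.83 CPM in ON (SD, n = 3), 105 ± 6.89 in OFF24 and 77.8 ± 2.62 in OFF48, and the 3 groups did not overlap (log2 -0.92 ± 0.11 at 48 h, adjusted p = 9.31e-07). Aurka, a spindle pole kinase, fell by 0.70 ± 0.10 at 48 h (adjusted p = 1.32e-05), Hmmr, a spindle protein, by 0.76 ± 0.13 (adjusted p = 9.34e-05) and the checkpoint kinase Bub1 by 0.88 ± 0.16 (adjusted p = 0.000129). Of 17 checkpoint and DNA damage genes, 4 were lower and 0 higher at 24 h (23.5% lower, background 17.4%; 6 and 0 at an unadjusted p under 0.05; DESeq2 0 and 0, limma-voom 4 and 0), among them Chek1 (log2 -0.60 ± 0.19, adjusted p = 0.0178) and Rad1 (-0.66 ± 0.23, adjusted p = 0.0284). At 48 h 3 were lower than in ON, Cdc25b (-1.09 ± 0.17, adjusted p = 2.36e-05), Cdc25c (-0.89 ± 0.33, adjusted p = 0.0309) and Atm (-0.46 ± 0.18, adjusted p = 0.0445), and Chek2 was higher (0.46 ± 0.17, adjusted p = 0.0323). These shares (17.6% lower and 5.88% higher) lie under the background of 23.9% and 23.4%, and DESeq2 called 1 gene lower and 0 higher.

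**Figure D4:**
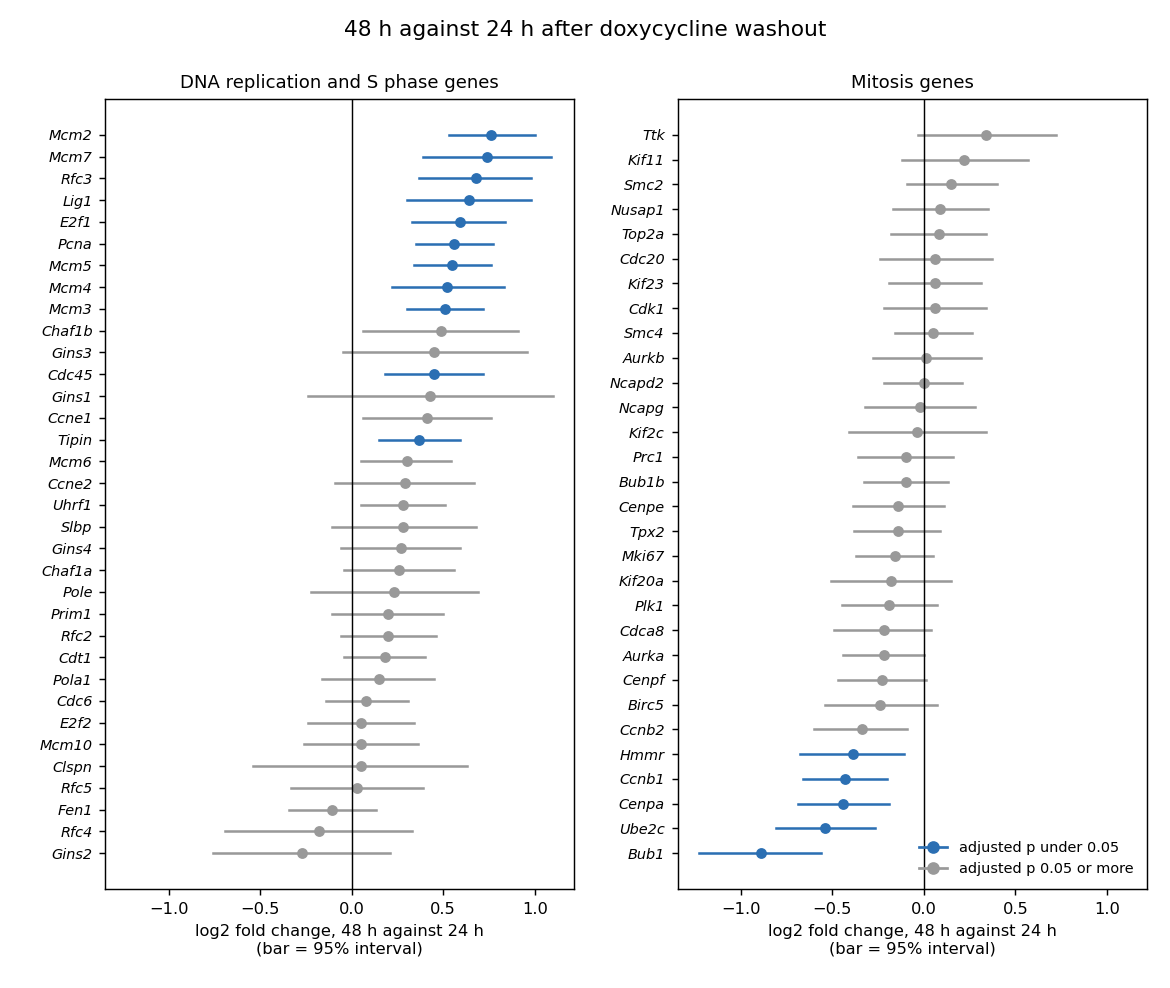
Log2 fold change of OFF48 against OFF24 (horizontal axes; point and 95% interval from edgeR) for the 34 replication and S phase genes and 30 mitosis genes; blue points have an adjusted p under 0.05. The 11 blue points on the left lie above 0 and the 5 on the right below it.

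**Figure D5:**
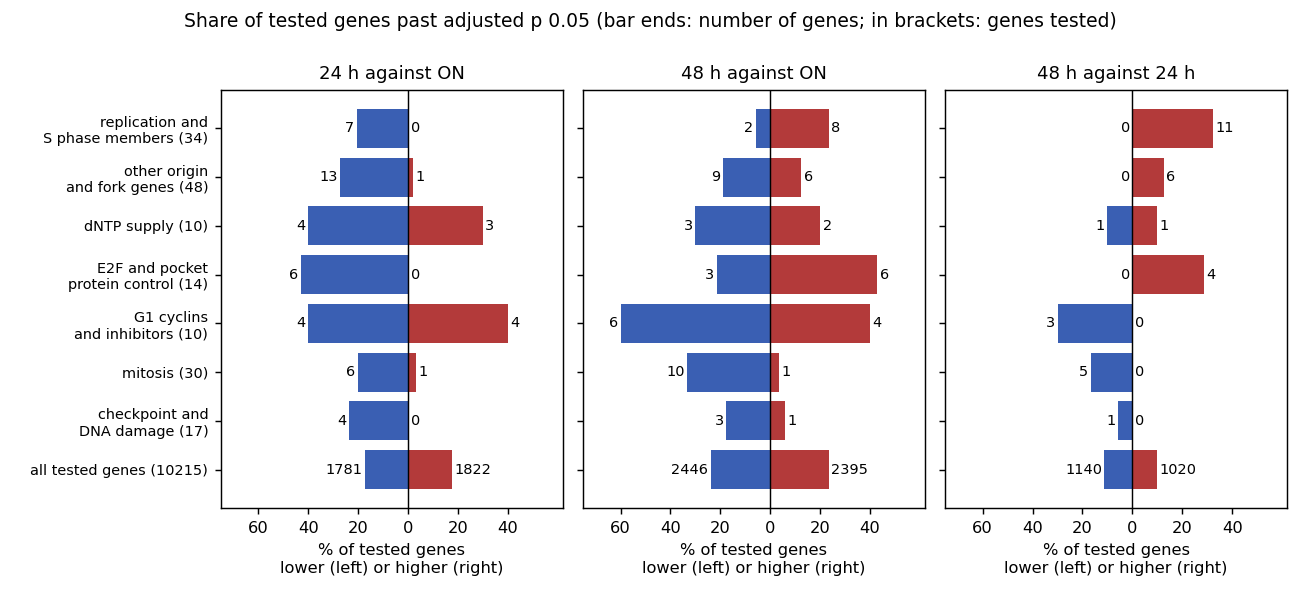
Share of tested genes called lower (bars to the left, %) or higher (bars to the right, %) in each comparison, for the replication and S phase genes, the other lists and all 10215 tested genes; numbers at bar ends are genes. At 48 h against 24 h, 11 of 34 replication genes are higher and 0 lower, against 9.99% and 11.2% of all tested genes.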

How the data were processed

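RNA of 9 libraries was read with the Lexogen QuantSeq 3' mRNA kit, per the labels' protocols. The submitters' processing notes name HISAT2 2.0.4, cutadapt 1.5, featureCounts of Subread 1.5.0-p3, limma 3.42.2 and mm10. For the counting, the annotation, strand setting and handling of reads with several matches were not given in the sources used here. As deposited by the authors, counts are whole reads per gene symbol, not normalised. A second deposited table of 10552 rows holds the authors' normalised log2 values and served as an alternative.

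Here filterByExpr kept 10215 genes, and edgeR 4.0.16 (R 4.3.3, TMM, robust quasi-likelihood, 1 mean per group, 6 residual degrees of freedom) was fitted to all 9 libraries. The code was also run on simulated data, with the same spread for all genes and far fewer changed genes than were called here. Its pass mark for recovering 2-fold changes was lowered after the result was seen. That run therefore does not measure how well smaller changes are found in these libraries. P-values were Benjamini-Hochberg adjusted over all tested genes. SE is the size of the log2 fold change over the square root of F. Alternatives used DESeq2 1.42.0, limma 3.58.1, other scalings, filters and fits, and left out libraries. A floor of 3 counts is 0.743 to 2.26 CPM and covers counting error only, since the reads are PCR products without molecular identifiers. Between replicates the chi-square of counts divided by its degrees of freedom was 1.99 to 6.99, above counting noise.

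All 34 members are named; called ones have every library. Other lists name up to 4 genes of smallest p at 48 h and up to 2 at 24 h against ON. Members and lists were chosen with earlier results of these data known. Replicate numbers come from the titles. Deviations of same-numbered libraries correlated at 0.115, 0.406 and 0.198 between ON and OFF48, above 0.1 in every pair, but not in every pair of the other comparisons, so only for OFF48 with ON is the blocked value given beside a result whose call it changes.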

Additional observations from a re-analysis of the deposited data

Results flagged for a closer look

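For 11 genes the change from ON differed between the times, as tested by OFF48 against OFF24 in edgeR. On the log2 scale the 48 h value exceeded the 24 h value by 0.76 for Mcm2, 0.51 for Mcm3, 0.52 for Mcm4, 0.55 for Mcm5, 0.74 for Mcm7, 0.45 for Cdc45, 0.56 for Pcna, 0.68 for Rfc3, 0.64 for Lig1, 0.37 for Tipin and 0.59 for E2f1. In all 11 genes every OFF48 library lay above every OFF24 library, as in 18.2% of all tested genes. The calls rest on these same libraries, so the separation is a description and not further support. The genes differ in where the difference comes from: Mcm2, Mcm7, Pcna and Tipin were called lower than ON at 24 h, while Mcm3, Mcm4, Mcm5, Rfc3, Lig1 and E2f1 were called higher than ON at 48 h and not called at 24 h. Cdc45 was called against ON at neither time. These comparisons with ON share libraries with the test between the times and are not independent of it.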

How the results depend on the processing

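Over 21 alternatives to the analysis, 4 of 7 calls at 24 h (Mcm2, Tipin, Uhrf1 and Ccne1), 2 of 10 at 48 h against ON (Mcm5 and Rfc3) and 7 of 11 between the times (Mcm2, Mcm3, Mcm5, Mcm7, Pcna, Rfc3 and E2f1) were kept in all. Of 2142 refitted values of single genes, 57 lost and 39 gained a call, none reversed a call, and 66 changed sign without being called in either fit. With 1 library left out at a time, the number of genes called ran from 5 to 9 at 24 h, 5 to 11 at 48 h against ON and 9 to 13 between the times. Without ON replicate 1 there were 5 calls at 48 h, all higher, and on the deposited normalised values there were 5, of which 4 were higher; the cause was not tested. The median log2 fold change ran from -0.26 to -0.19 at 24 h, 0.02 to 0.17 at 48 h and 0.29 to 0.35 between the times when 1 library was left out. It was -0.16 at 24 h and 0.25 between the times with upper quartile scaling, where the median of all tested genes was 0.07 and -0.04. Without the filter on low counts, the value at 24 h was -0.24. An alternative chosen after seeing the data left out replicate 2 of all groups, since these libraries deviated together. It called 1 gene, Ccne1, with at least a 2-fold change at 24 h, and gave a median of 0.33 between the times. With replicate number as a block, edgeR called 9 genes lower and 1 higher at 24 h, 8 higher and 3 lower at 48 h, and 13 higher between the times. The block added Cdc6, Mcm3 and Slbp at 24 h and Mcm6 and Uhrf1 between the times. In none of the 3 comparisons did every library correlate best with its own number. Between ON and OFF48, ON replicate 1 correlated at 0.115 with OFF48 replicate 1 and at 0.124 with OFF48 replicate 3. Replicate 2 was the lowest library of all 3 groups for 8 genes and the highest for 5. Depth limits the least expressed genes most, with counts as low as 10 in a library.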
